A study of Rattus norvegicus with 6 samples.

Results

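Hspa5, Atf4 and Ddit3, a chaperone and 2 transcription factors of the endoplasmic reticulum (ER) stress response, were examined in macrophages of the infarcted rat heart. The genes were taken by their Ensembl identifiers, ENSRNOG00000018294 for Hspa5, ENSRNOG00000017801 for Atf4 and ENSRNOG00000006789 for Ddit3. All 3 identifiers were found among the 33884 genes of the count table, and all 3 passed the filter on low counts that kept 12756 genes. None of the genes passed the test between WT and Dusp6-deficient macrophages. Atf4 alone of the 3 did not overlap between the genotypes, by a gap of 1.81 CPM and with lower levels in Dusp6-deficient libraries, as did 16.3% of all genes tested.

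The libraries hold total RNA of CD45+HIS36+ cells, sorted from infarcted cardiac tissue 72 h after myocardial infarction (MI). CD45 marks leukocytes and the HIS36 antibody marks rat macrophages. The 3 WT libraries came from Sprague Dawley rats with an intact Dusp6 gene, and the 3 Dusp6-deficient libraries from rats of the same strain with the genotype Dusp6-/-. Per the study, the animals were age-matched males with permanent ligation of a coronary artery, and the mutant line, made with CRISPR, carries an insertion in the first exon of Dusp6 that gives a premature stop codon. The mutation is not limited to macrophages. Macrophages of sham-operated hearts were not analysed here. The genotypes are therefore compared after MI alone, and how far MI itself moves these genes is not measured. The p-values set the difference between genotypes against the spread between libraries. The sources used here do not say how many rats gave each library, so how far that is a spread between animals is not known.

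DUSP6 is a phosphatase that removes phosphate from the kinases ERK1/2. ER stress arises when unfolded proteins build up in the ER, and it is sensed by IRE1, PERK and ATF6 in the ER membrane. Hspa5 encodes BiP (GRP78), the main HSP70 chaperone of the ER lumen, which binds unfolded proteins and holds the sensors inactive. PERK phosphorylates eIF2α, which slows translation in general while that of the Atf4 mRNA rises. ATF4 is a transcription factor of amino acid metabolism and stress genes, and it induces Ddit3, which encodes CHOP, a transcription factor linked to cell death under lasting stress. Macrophages meet ER stress when they secrete much protein or take up dying cells. Since ATF4 is controlled largely at translation and the sensors largely as proteins, mRNA levels report on only a part of this response.

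The promoters are shown because the ER stress response element, the sequence bound by ATF6 with the factor NF-Y, is a known feature of ER chaperone genes. All 3 symbols were matched in the RefSeq table of promoter windows (build GRCr8), which reach from 250 bases before to 50 bases after the annotated start of a gene. The 250 bases before the start are given 5′ to 3′ on the plus strand, and capitals mark matches to the ER stress response element or to either of its parts on either strand. They lie at chr3:38452766-38453015 for Hspa5, chr7:113684431-113684680 for Atf4 and chr7:65001445-65001694 for Ddit3.
Hspa5: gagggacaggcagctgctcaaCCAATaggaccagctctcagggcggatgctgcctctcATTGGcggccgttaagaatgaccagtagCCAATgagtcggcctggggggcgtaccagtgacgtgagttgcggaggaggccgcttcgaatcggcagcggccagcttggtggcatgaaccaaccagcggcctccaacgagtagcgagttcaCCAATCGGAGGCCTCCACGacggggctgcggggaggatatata
Atf4: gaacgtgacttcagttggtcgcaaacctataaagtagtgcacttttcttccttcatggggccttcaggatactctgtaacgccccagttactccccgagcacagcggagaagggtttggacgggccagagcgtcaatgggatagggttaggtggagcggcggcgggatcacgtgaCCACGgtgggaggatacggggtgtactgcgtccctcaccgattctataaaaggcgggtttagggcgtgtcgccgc
Ddit3: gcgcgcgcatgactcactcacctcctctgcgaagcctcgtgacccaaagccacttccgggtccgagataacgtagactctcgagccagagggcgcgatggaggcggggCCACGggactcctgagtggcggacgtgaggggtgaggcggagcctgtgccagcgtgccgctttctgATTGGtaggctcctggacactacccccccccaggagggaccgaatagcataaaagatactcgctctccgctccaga

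The ER stress response element is CCAAT and CCACG with 9 bases of any kind between them. The Hspa5 window held 1 exact match, which read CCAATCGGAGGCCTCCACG. It lay on the plus strand from base -43 to base -25, counted from the annotated start. Of all 33469 windows of this length, 22 (0.0657%) held a match to this element on either strand, and the Atf4 and Ddit3 windows held none. The parts of the element are short and common. CCAAT was found in 37.5% of all windows, with 4 matches for Hspa5, 1 for Ddit3 and 0 for Atf4, and CCACG was found in 31.6% of all windows, with 1 match for each of the 3 genes. For Hspa5, 1 match of each part is the element itself. The unfolded protein response element TGACGTGG (0.595% of windows) and the C/EBP-ATF response element TGATGNAA (3.98% of windows), a kind of site that ATF4 binds, were in none of the 3 windows on either strand. A match is a description of the letters and no measurement of binding, and the absence of one says only that these letters are not in the window. Only exact matches were counted, so a site that differs from the element by a single letter is not counted for any of the 3 genes.

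**Figure D1:**
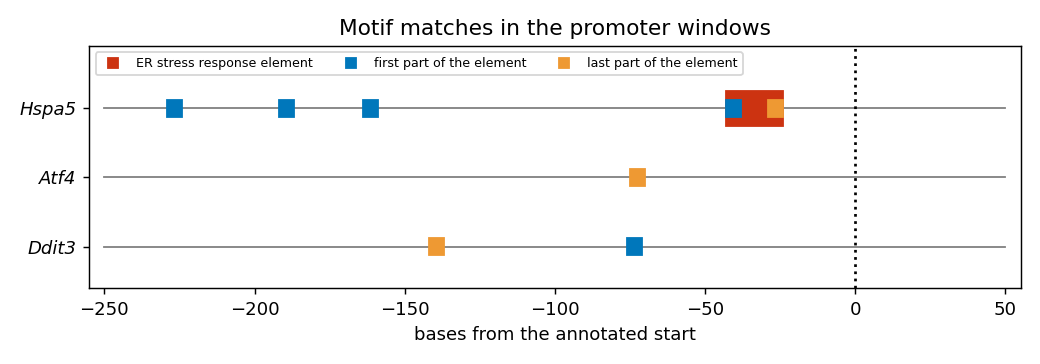
Exact matches to the ER stress response element and to its first and last parts (CCAAT and CCACG) in the promoter windows of the 3 genes, by distance in bases from the annotated start (dotted line). An exact match to the whole element is found for Hspa5 alone of the 3 genes, between -43 and -25. Near matches are not shown.

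In these libraries, 12089585 to 17274938 reads were counted on genes. Levels are given as CPM, the count relative to a library size that was scaled by the TMM method with factors from 0.874 to 1.14. On the first principal component of log2 CPM over all genes tested, WT libraries scored from -49.7 to -35.9 and Dusp6-deficient replicates 2 and 3 scored 65.0 and 53.5, while Dusp6-deficient replicate 1 lay between the genotypes at 4.48. Fold changes and ratios are therefore also given without that library. Markers of macrophages and other cells, and Dusp6 itself, were not analysed here, since identifiers could not be paired with gene names. In sorted cells measured in bulk, fewer cells that express a gene and less RNA per cell cannot be told apart.

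The chaperone Hspa5 was counted 7623, 5794 and 5986 times in WT replicates 1, 2 and 3. In Dusp6-deficient replicates 1, 2 and 3 the counts were 7027, 5191 and 4753. These correspond to 453, 335 and 436 CPM in WT and to 402, 419 and 380 CPM in Dusp6-deficient macrophages. All of the Dusp6-deficient libraries lay inside the WT range, whose highest and lowest libraries, WT replicates 1 and 2, were also the highest and lowest of all 6. WT libraries had a mean of 408 ± 63.9 CPM (SD, n = 3) and Dusp6-deficient libraries one of 401 ± 19.4 CPM (SD, n = 3), which differ by less than either SD. The log2 fold change, given throughout as Dusp6-deficient minus WT, was -0.026 with a standard error of 0.19, and edgeR's quasi-likelihood test put it at an adjusted p of 0.942. Its 95% interval of -0.47 to 0.41 corresponds to 0.724 to 1.33 times the WT level. Without Dusp6-deficient replicate 1, the log2 fold change was -0.079 (edgeR's adjusted p = 0.772).

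The scale on which the libraries are compared mattered most for Hspa5. With cyclic loess normalization, which scales genes by their abundance and was added after the data were seen, its log2 fold change was -0.34 (edgeR's adjusted p = 0.276). The genotypes overlapped on that scale as well, with 362 to 532 CPM in WT and 340 to 384 CPM in Dusp6-deficient macrophages. Without WT replicate 1 the sign turned, at 0.024 (edgeR's adjusted p = 0.966).

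Atf4, the transcription factor downstream of PERK, was counted 3963, 4722 and 3576 times in WT replicates 1, 2 and 3. In the Dusp6-deficient libraries the counts were 4078, 2423 and 2133. The levels were 235, 273 and 261 CPM in WT and 234, 196 and 171 CPM in Dusp6-deficient macrophages. The genotypes did not overlap, but the highest Dusp6-deficient library, replicate 1, was only 1.81 CPM under the lowest WT library. Of all genes tested, 16.3% were likewise lower in every Dusp6-deficient library than in every WT library, and 34.1% did not overlap in either direction. The overlap was looked at on 4 scales besides TMM after the data were seen. The genotypes also stayed apart for Atf4 with RLE, upper-quartile and cyclic loess normalization, and without scaling beyond the total of the genes tested. These scales use the same 6 libraries, and the shares of all genes without overlap were counted with TMM alone.

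The mean Atf4 level was 256 ± 19.1 CPM (SD, n = 3) over WT libraries and 200.0 ± 31.6 CPM (SD, n = 3) over Dusp6-deficient libraries. The log2 fold change was -0.36 with a standard error of 0.19, and its 95% interval ran from -0.80 to 0.082, or from 0.576 to 1.06 times the WT level. It did not pass edgeR's test, at an adjusted p of 0.240. Replicates 2 and 3 of the Dusp6-deficient macrophages stood at 76.3% and 66.6% of the WT mean, and replicate 1 at 91.2%. Taking the distance on the log2 scale between WT libraries on average and replicates 2 and 3 on average, replicate 1 lay at 27.0% of it. The same measure was 36.9% for Hspa5 and 164% for Ddit3. Among all genes that did not overlap and were lower in Dusp6-deficient libraries, replicate 1 was the highest of its genotype for 58.2%.

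Without Dusp6-deficient replicate 1, the log2 fold change of Atf4 was -0.53 with an adjusted p of 0.0417 from edgeR's test, which is under 0.05 but short of the fold change threshold of 1 on the log2 scale. In that fit 28.6% of genes had an adjusted p under 0.05, and 13.1% had one and were lower in Dusp6-deficient macrophages. With all 6 libraries these shares were 8.22% and 2.67%. DESeq2's Wald test without the same library, which was added after the data were seen, gave -0.54 for Atf4 (adjusted p = 0.00572). Low adjusted p-values were common in that DESeq2 fit too. It called 1153 genes higher and 1203 lower of 18529 with the fold change threshold applied, which Atf4 did not reach. In the other fits that left out 1 library, the adjusted p for Atf4 was between 0.333 and 0.515 with edgeR's test. Those fits called few genes of the whole table at both thresholds. The calls ran from 2 higher and 5 lower of 13261, without Dusp6-deficient replicate 3, to 68 higher and 80 lower of 13170, without WT replicate 3. Without Dusp6-deficient replicate 1 they were 1083 higher and 968 lower of 13103. With cyclic loess normalization and all 6 libraries, its log2 fold change was -0.61 (edgeR's adjusted p = 0.0813).

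Ddit3, which encodes CHOP, had far fewer reads. Its counts were 181, 268 and 361 in WT replicates 1, 2 and 3, and 180, 179 and 132 in the Dusp6-deficient replicates. The levels were 10.8, 15.5 and 26.3 CPM in WT and 10.3, 14.5 and 10.6 CPM in Dusp6-deficient macrophages. WT replicate 3 was the highest library, WT replicate 1 lay among the Dusp6-deficient libraries, and the genotypes overlapped. The highest WT library had 2.45 times the level of the lowest, against 1.40 times in Dusp6-deficient macrophages. At these depths, counting error alone gives a coefficient of variation of 5.26% to 8.70% for Ddit3, and the coefficient between WT libraries was 45.5%.

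The mean Ddit3 level was 17.5 ± 7.97 CPM (SD, n = 3) over WT libraries and 11.8 ± 2.32 CPM (SD, n = 3) over Dusp6-deficient libraries. The log2 fold change of -0.57, with a standard error of 0.34, had an adjusted p of 0.286 by edgeR's test. Its 95% interval of -1.35 to 0.21 corresponds to 0.392 to 1.15 times the WT level. The value rested on single WT libraries. Without WT replicate 3 it was -0.20 (edgeR's adjusted p = 0.716), and without WT replicate 1 it was -0.86 (edgeR's adjusted p = 0.189). Without Dusp6-deficient replicate 1 it was -0.53 (edgeR's adjusted p = 0.325), so that Ddit3, unlike Atf4, did not come under 0.05 in that fit. Whether the genes differ in this respect was not tested.

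**Figure D2:**
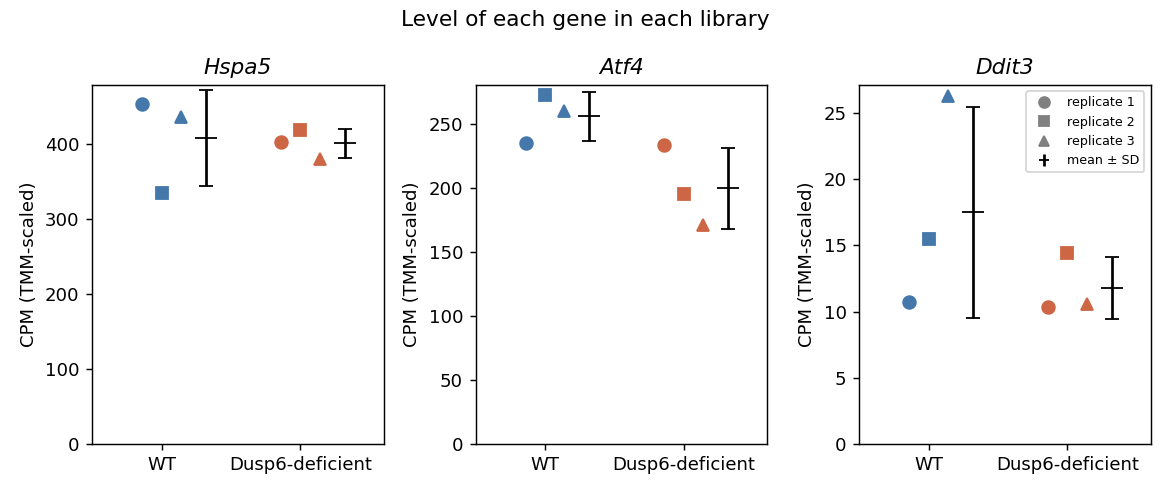
CPM (TMM-scaled, linear axes from 0) of Hspa5, Atf4 and Ddit3 in each library, with symbols for the replicate number and bars for the mean ± SD of each genotype (n = 3). WT and Dusp6-deficient libraries overlap for Hspa5 and Ddit3 and are set apart by 1.81 CPM for Atf4.

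Of the 3 genes, 0 passed edgeR's test at both thresholds, 0.05 for the adjusted p and 1 for the size of the log2 fold change, where 5.62% of all genes did. At an adjusted p of 0.05 alone, 0 of the 3 passed against 8.22% of all genes, and at an unadjusted p of 0.05, 0 of the 3 against 30.6%. DESeq2's Wald test on all 6 libraries also called 0 of the 3, with log2 fold changes of -0.059 for Hspa5, -0.39 for Atf4 and -0.60 for Ddit3. The log2 fold changes of all genes tested had a median of 0.024 and quartiles of -0.46 and 0.49. Those of Hspa5 and Atf4 lay between the quartiles, with 47.1% and 29.7% of genes below them, and that of Ddit3 lay under the lower quartile, with 20.5% of genes below it. The biological coefficient of variation is edgeR's estimate of the spread within a genotype, and it borrows from other genes. It was 20.8% for Hspa5 and 20.7% for Atf4, under the median of 28.6% over all genes, and 31.8% for Ddit3, above it. The coefficients of variation of CPM itself, in WT and Dusp6-deficient libraries, were 15.7% and 4.83% for Hspa5 and 7.44% and 15.8% for Atf4. For Ddit3 they were 45.5% and 19.7%.

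**Figure D3:**
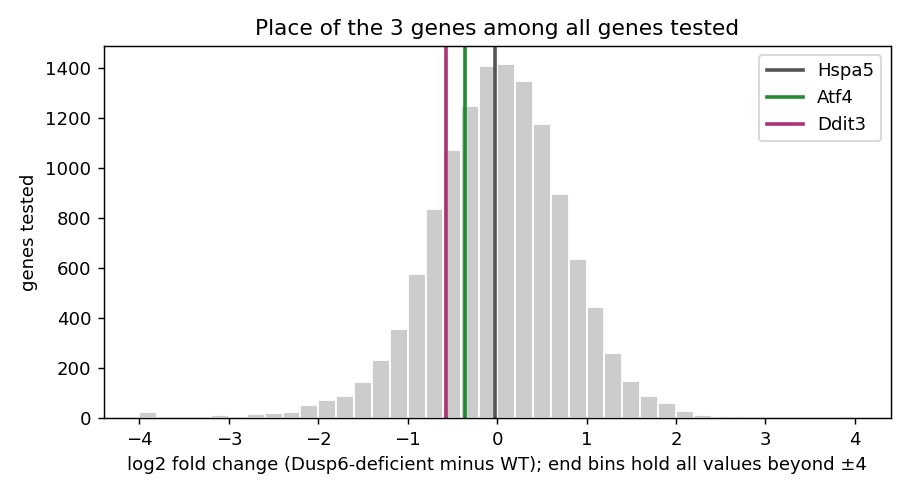
Number of genes (vertical axis) by log2 fold change, Dusp6-deficient minus WT (horizontal axis, bins of 0.2), over the 12756 genes tested, with lines for the 3 genes. Hspa5 at -0.026 lies near the middle, Atf4 at -0.36 to its left and Ddit3 at -0.57 just outside the lower quartile of -0.46.

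The relation between the genes was then followed inside each library, where the ratio of 2 genes' counts does not depend on library scaling. Differences between genotypes in the log2 ratio were tested with a two-sided exact permutation test, for which 3 libraries against 3 allow no p under 0.1. For every 100 Hspa5 reads there were 52.0, 81.5 and 59.7 Atf4 reads in WT replicates 1, 2 and 3. In Dusp6-deficient replicates 1, 2 and 3 there were 58.0, 46.7 and 44.9. Dusp6-deficient replicates 2 and 3 were the lowest libraries, and replicate 1 lay within the WT range. The mean log2 ratio of Atf4 to Hspa5 was -0.66 ± 0.33 (SD, n = 3) over WT libraries and -1.01 ± 0.20 (SD, n = 3) over Dusp6-deficient libraries, a difference of -0.35 (exact permutation p = 0.2, 0.6 adjusted over the 3 ratios). Without Dusp6-deficient replicate 1 the difference was -0.47 (exact permutation p = 0.2).

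For every 100 Atf4 reads there were 4.57, 5.68 and 10.1 Ddit3 reads in WT replicates 1, 2 and 3, and 4.41, 7.39 and 6.19 in the Dusp6-deficient replicates. The Dusp6-deficient libraries spanned much of the WT range, and WT replicate 3 was again the highest. The mean log2 ratio of Ddit3 to Atf4 was -3.96 ± 0.59 (SD, n = 3) over WT libraries and -4.09 ± 0.38 (SD, n = 3) over Dusp6-deficient libraries, a difference of -0.12 (exact permutation p = 0.8, 0.8 adjusted over the 3 ratios). The sign of this difference turned without WT replicate 3, at 0.21, and without Dusp6-deficient replicate 1, at 0.082. The mean log2 ratio of Ddit3 to Hspa5 was -4.62 ± 0.69 (SD, n = 3) over WT libraries and -5.10 ± 0.22 (SD, n = 3) over Dusp6-deficient libraries, a difference of -0.48 (exact permutation p = 0.4, 0.6 adjusted over the 3 ratios). It was -0.19 without WT replicate 3, -0.86 without WT replicate 1 and -0.38 without Dusp6-deficient replicate 1.

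**Figure D4:**
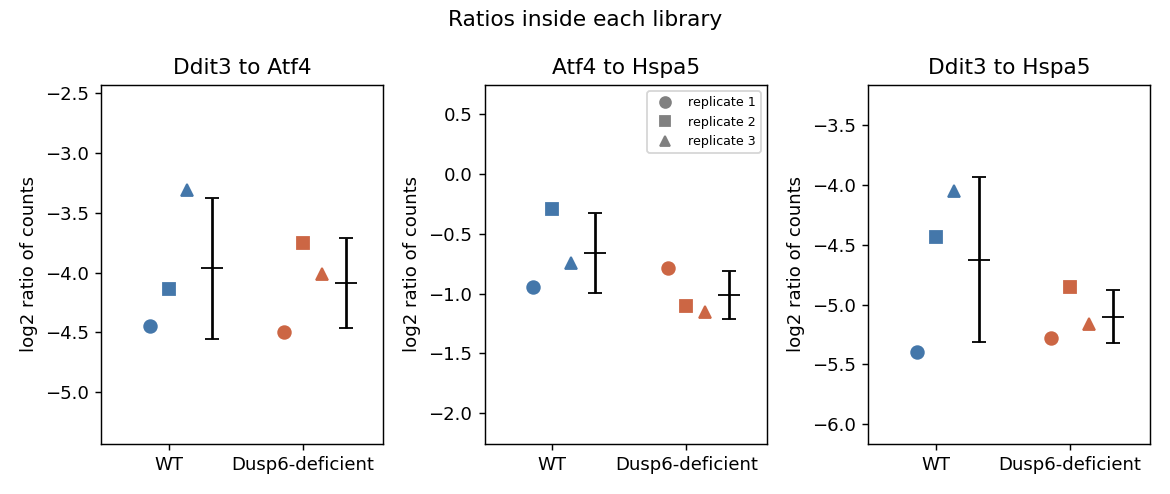
Log2 ratio of raw counts (vertical axes, each spanning the same range) of Ddit3 to Atf4, Atf4 to Hspa5 and Ddit3 to Hspa5 inside each library, with bars for the mean ± SD of each genotype (n = 3). The genotypes overlap in all 3 ratios, and WT replicate 3 is highest in both ratios of Ddit3.

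The order of the libraries differed between the genes. From the highest to the lowest level, Atf4 ran from WT replicate 2 through WT replicates 3 and 1 to Dusp6-deficient replicates 1, 2 and 3. Ddit3 ran from WT replicates 3 and 2 through Dusp6-deficient replicate 2, WT replicate 1 and Dusp6-deficient replicate 3 to Dusp6-deficient replicate 1. Hspa5 had WT replicate 2 as its lowest library, the one in which Atf4 was highest. WT replicate 3 was the highest of the 6 libraries for 18.8% of all genes tested, Ddit3 among them.

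The genes with the pattern most like each of the 3 were sought by Pearson's correlation of log2 CPM over the 6 libraries, as a description and among the 8083 other genes whose log2 CPM averaged 3 or more. All points share the libraries and their scaling, and the libraries fall into 2 genotypes. The nearest to Atf4 was ENSRNOG00000008755 (r = 0.997, log2 fold change -0.52) and the nearest to Ddit3 was ENSRNOG00000007690 (r = 0.995, log2 fold change -1.83), and neither passed edgeR's test, with adjusted p-values of 0.154 and 0.129. The nearest to Hspa5 had an r of 0.980. The 3 genes were not among each other's nearest. Atf4 was more like Ddit3 than 85.1% of genes were, and Ddit3 more like Atf4 than 68.4%. Hspa5 was more like Atf4 than 49.1% of genes were, and more like Ddit3 than 59.1%.

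Over the alternatives tried, the log2 fold change ran from -0.61 to -0.28 for Atf4 and from -0.86 to -0.20 for Ddit3, below 0 throughout. For Hspa5 it lay on either side of 0. With all libraries and TMM, the 95% intervals of Atf4 and Ddit3 span 0, as does that of Hspa5. The alternatives reuse the same libraries, so a constant sign over them is no independent evidence of a difference.

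**Figure D5:**
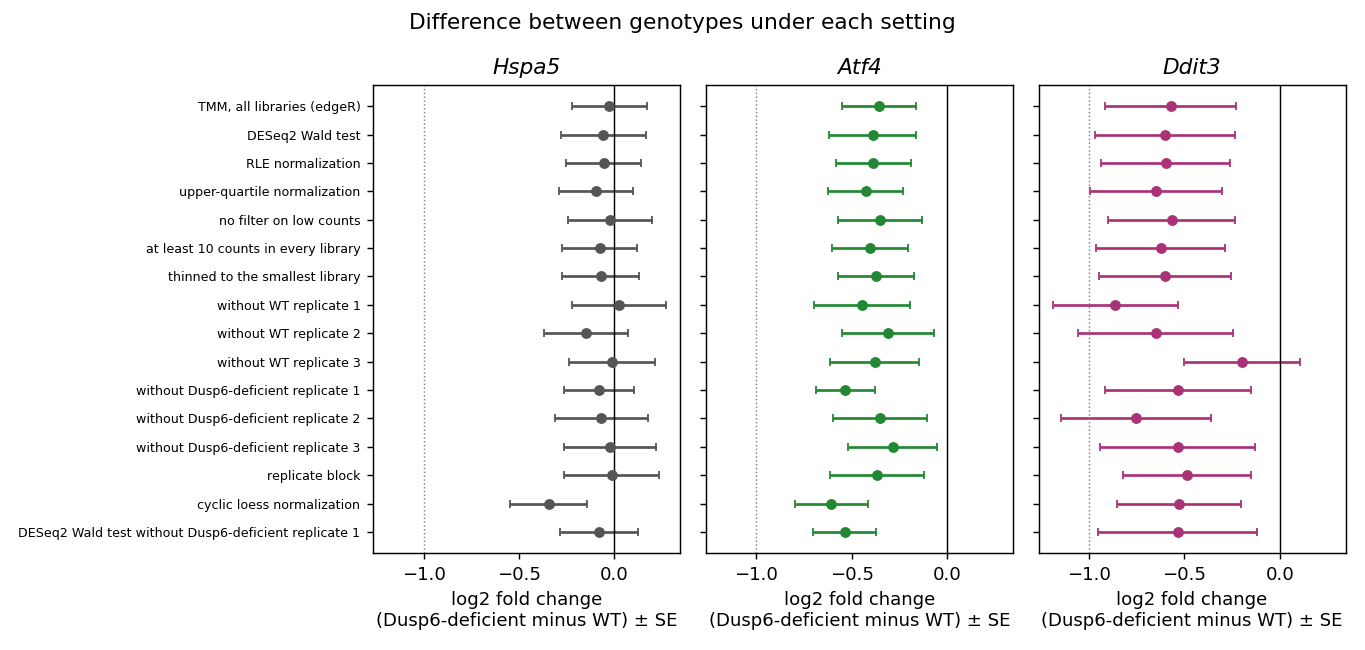
Log2 fold change, Dusp6-deficient minus WT, ± standard error (horizontal axes) of the 3 genes under each setting of the test (vertical axis), with a solid line at 0 and a dotted line at the threshold of -1. Atf4 and Ddit3 stay below 0 in all settings shown, while Hspa5 runs from -0.34 to 0.024.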

How the data were processed

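RNA-seq libraries of cardiac macrophages from 3 WT and 3 Dusp6-deficient samples at 72 h after MI were used. Per the labels and the study's methods, the authors trimmed reads with Trim Galore, aligned them to Rnor_6.0 (rn6) with HISAT2 and deposited the counts per gene from featureCounts 1.5.0-p3, without normalization. Annotation release, strand setting and treatment of reads with several places are not given in the sources used here, so reads of overlapping genes or near-identical copies may be misassigned.

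Tests were run on the counts with edgeR 4.0.16 in R 4.3.3 (filterByExpr, TMM, quasi-likelihood test, Benjamini-Hochberg adjustment over all genes tested) and DESeq2 1.42.0. Cyclic loess normalization was done with limma 3.58.1. A call needed an adjusted p under 0.05 and more than 1 in size on the log2 scale. Standard errors and 95% intervals of edgeR's fits come from the F statistic, and standard errors of the DESeq2 fits are DESeq2's own. Log2 CPM has a prior count of 2 and log2 ratios a pseudocount of 0.5. Alternatives were DESeq2, other normalizations and filters, thinned counts, each library left out and a replicate block.

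The members, lists and tests were chosen with earlier results of these data known. The 3 symbols were taken with their identifiers and not checked against a table, since 0 identifiers could be paired with symbols. Lists of ER stress sensors, chaperones, degradation factors, ATF4 and CHOP targets and cell type markers were therefore not analysed. By the naming rule set for this work, the 2 genes most like each member were to be named, and for the same reason only the first is given, for Atf4 and Ddit3. Libraries of one genotype differed by more than counting error, with a chi-square statistic per gene of 28.5 or more.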

Additional observations from a re-analysis of the deposited data

How the results depend on the processing

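With edgeR's test, 442 genes were higher and 275 lower in Dusp6-deficient macrophages (61.6% higher), and with upper-quartile normalization 348 and 345 (50.2% higher). DESeq2's Wald test gave 645 higher and 661 lower genes (49.4% higher). The fit with no filter on low counts gave 561 and 422, and that with no fold change threshold 708 and 341. Fits without 1 library gave 1 to 1083 higher and 5 to 968 lower genes, and DESeq2 without Dusp6-deficient replicate 1 gave 1153 and 1203. The cause was not tested.

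Hspa5, Atf4 and Ddit3 were called under none of the 16 alternatives tried for each. Some alternatives called very few genes at all. The fewest were 2 higher and 5 lower of 13261, without Dusp6-deficient replicate 3. The most were 1153 higher and 1203 lower of 18529, with DESeq2 without Dusp6-deficient replicate 1. Among the 16, the setting with no fold change threshold is the main fit itself, with the same values for the 3 genes. Without 1 library, the log2 fold change ran from -0.15 to 0.024 for Hspa5, from -0.53 to -0.28 for Atf4 and from -0.86 to -0.20 for Ddit3. The difference in log2 ratio ran from -0.37 to 0.21 for Ddit3 to Atf4, from -0.49 to -0.17 for Atf4 to Hspa5 and from -0.86 to -0.19 for Ddit3 to Hspa5.

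The labels link same-numbered libraries by the number alone, and whether these were prepared together is not stated in the sources used here. Their deviations from the genotype means correlated at 0.11, -0.12 and -0.14 across genes, and those of libraries with unlike numbers at -0.13 to 0.21. With the replicate block, the log2 fold changes were -0.015 for Hspa5, -0.37 for Atf4 and -0.49 for Ddit3, with 298 higher and 188 lower genes over the table, and the differences in log2 ratio were -0.12, -0.35 and -0.48 in the order above. The block changed no call of the 3 genes.

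With 132 to 361 reads in a library, Ddit3 was measured with the largest counting error of the 3 genes.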
